A study of Mus musculus with 22 samples.

Results

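The 10 genes described here carry transforming growth factor beta (TGF-beta) from its secretion to its receptor: the ligands *Tgfb1*, *Tgfb2* and *Tgfb3*, the receptors *Tgfbr1*, *Tgfbr2* and *Tgfbr3*, the latency proteins *Ltbp1*, *Ltbp2* and *Ltbp3*, and *Inhba*, which encodes a subunit of the related ligand activin A. They were taken by symbol from the 41388 genes counted in 22 RNA-seq libraries of cells sorted from mouse tumor stroma. All 10 were among the 15018 genes that passed the filter on low counts.

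TGF-beta is secreted as a latent complex, in which the mature ligand is held by its own propeptide. Latent TGF-beta binding proteins tether this complex to the matrix, and integrins or proteases release the ligand from it. The free ligand binds the type II receptor, which recruits and phosphorylates the type I receptor, and Smad2 and Smad3 then carry the signal to the nucleus. In tumor stroma the pathway is known for turning fibroblasts into contractile, matrix-producing cells and for restraining immune cells.

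The mice were C57BL/6 at postnatal day 56 and carried Osx-cre with the Ai9 reporter, which marks cells of the *Sp7* (Osterix) lineage with TdTomato (TdTOSX). The sort used TdTOSX and the pan-leukocyte protein CD45, the product of *Ptprc*. TdTOSX single positive cells are TdTOSX+;CD45-, double positive cells TdTOSX+;CD45+, CD45 single positive cells TdTOSX-;CD45+ and double negative cells TdTOSX-;CD45-. Each population was taken from mice labelled wild type, which carry Osx-cre and Ai9, and from mice labelled Cdh2-cKO, which carry in addition a conditional deletion of *Cdh2*, the gene of N-cadherin. Under each label there are 2 TdTOSX single positive libraries and 3 libraries of every other population. The tumor is given as an orthotopic MMTV-BO1 tumor in the labels, as subcutaneous in the series design, and in the study as a subcutaneously injected, GFP-labeled PyMT-BO1 line. The Cre is driven by the *Sp7* promoter, so the deletion concerns cells of that lineage, and the labels do not say which libraries come from the same mouse.

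In GRCm38 the ligand genes lie at chr7:25687002-25705077 (*Tgfb1*, plus strand), chr1:186623186-186705992 (*Tgfb2*, minus) and chr12:86056744-86079041 (*Tgfb3*, minus). The receptor genes lie at chr4:47353222-47414931 (*Tgfbr1*, plus), chr9:116087698-116175363 (*Tgfbr2*, minus) and chr5:107106570-107289629 (*Tgfbr3*, minus). The latency genes lie at chr17:75005568-75392512 (*Ltbp1*, plus), chr12:84783212-84876532 (*Ltbp2*, minus) and chr19:5740904-5758532 (*Ltbp3*, plus), and *Inhba* at chr13:16011851-16027211 on the plus strand. Reads were counted over the exons, whose summed length runs from 1980 bases in *Inhba* to 10480 bases in *Ltbp1*. Of the 10, *Ltbp2*, *Tgfb2* and *Ltbp3* share exon bases with another gene, 764, 127 and 106 bases, and the other 7 share none.

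The sequences just upstream of the start are shown for the ligands with the opposite patterns across the sorts, *Tgfb1* and *Tgfb2*, and for *Ltbp1*, the latency protein with most reads. Each line gives the 250 bases before the RefSeq transcription start (the upstream one for *Ltbp1*) in GRCm38.p6, read 5′ to 3′ along the gene. Capitals mark GC boxes (GGGCGG, on either strand) in *Tgfb1*, a TATA box (TATAAA) and an E box (CACGTG) in *Tgfb2*, and a cAMP response element (TGACGTCA) in *Ltbp1*.
Tgfb1, chr7:25686752-25687001, plus strand: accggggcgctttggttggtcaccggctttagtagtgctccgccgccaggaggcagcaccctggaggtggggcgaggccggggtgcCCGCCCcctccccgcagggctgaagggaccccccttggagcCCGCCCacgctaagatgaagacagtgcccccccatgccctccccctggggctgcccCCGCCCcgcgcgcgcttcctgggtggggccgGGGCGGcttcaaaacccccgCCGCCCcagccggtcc
Tgfb2, chr1:186705990-186706239, minus strand: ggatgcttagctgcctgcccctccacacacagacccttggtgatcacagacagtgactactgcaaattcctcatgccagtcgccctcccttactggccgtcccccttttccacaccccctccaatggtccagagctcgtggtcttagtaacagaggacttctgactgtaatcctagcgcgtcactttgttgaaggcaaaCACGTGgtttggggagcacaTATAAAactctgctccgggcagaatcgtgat
Ltbp1, chr17:75005279-75005528, plus strand: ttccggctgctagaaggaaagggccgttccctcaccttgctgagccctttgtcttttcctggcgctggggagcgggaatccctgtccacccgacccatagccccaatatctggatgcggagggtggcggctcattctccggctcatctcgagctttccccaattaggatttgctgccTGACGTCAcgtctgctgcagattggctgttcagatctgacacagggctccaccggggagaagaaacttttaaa

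Windows of this length were found for 8 of the 10 genes, and none was found for *Tgfb3* and *Tgfbr3*. The *Tgfb1* window held 5 GC boxes and was 75.2% G or C, against 53.6% in *Tgfb2* and 56.8% in *Ltbp1*. GC boxes also occurred in the windows of *Tgfbr1* and *Ltbp2*, 2 in each. The TATA box of *Tgfb2* began at position -31 and its E box at -51, and *Inhba* held a TATA box at -91. The cAMP response element of *Ltbp1* began at -73. For *Ltbp1* and *Tgfbr1* these values are of the upstream start. Each also had a window at a start further along the gene, which held none of the motifs named here. Of all 32851 windows in the table, 32.7% held a GC box, 12.4% a TATA box, 6.02% an E box and 1.55% a cAMP response element on either strand. The AP-1 motif TGANTCA, in 6.75% of all windows, and the Smad palindrome GTCTAGAC, in 0.167%, were in none of the windows of these genes. These matches describe letters in the windows, and no binding was measured.

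Between 16594228 and 26784003 reads were counted on genes per library, so that 3 counts, the smallest signal taken as present, correspond to between 0.103 and 0.201 CPM, the counts scaled by library size. This limit covers counting error only, since reads carry no molecular identifiers. The sort was visible in the markers: the summed level of 5 leukocyte markers was 8840 to 11400 CPM in CD45+ libraries, and that of 7 fibroblast markers 4280 to 59700 CPM in CD45- and 62.2 to 216 CPM in CD45+ libraries. Among CD45- libraries the leukocyte sum was 5160 CPM in wild type double negative replicate 3 and 3540 CPM in TdTOSX single positive replicate 1 labelled Cdh2-cKO, and 170 to 1660 CPM in the other 8. Wild type CD45 single positive replicate 2 had the lowest macrophage sum of the CD45+ libraries, 2960 CPM, and the highest sums of 5 T cell markers, 1870 CPM, and 5 B cell markers, 5510 CPM. Epithelial markers summed to 33.8 to 1990 CPM in CD45- and 132 to 470 CPM in CD45+ libraries. These 5 markers did not move together: 2 were higher in CD45+ cells and 3 lower. The log2 fold changes were 4.96 for *Epcam* and 4.08 for *Cdh1*, and -7.08 for *Krt19* and -3.51 for *Krt18*. *Sp7* itself had at most 1 count in any library.

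The label of the genotype could be checked on *Cdh2*. Its normalized CPM were 9.13 and 5.19 in the wild type TdTOSX single positive libraries and 17.2 and 13.1 in those labelled Cdh2-cKO. In double negative cells they were 6.02, 7.47 and 4.52 in wild type libraries and 12.5, 18.4 and 14.2 in those labelled Cdh2-cKO. Double negative cells lack the TdTOSX mark of the Cre, so the deletion is not expected in them and their values do not check the label. The targeted gene was higher, not lower, in every library of both CD45- populations under the label of its deletion. In double positive cells, which carry the TdTOSX mark as well, it was near the detection limit, at 0.713, 0.351 and 0.422 CPM in wild type libraries and 0.607, 0 and 0.421 CPM in those labelled Cdh2-cKO. The epithelial sum was 33.8 and 566 CPM in the wild type and 933 and 928 CPM in the Cdh2-cKO labelled TdTOSX single positive libraries. In double negative cells it was 505, 1400 and 595 CPM against 1230, 1990 and 1060 CPM. This sum joins markers that went both ways across the CD45 sort, and its part in the *Cdh2* level was not tested. The counts are of the whole gene, and which exons are deleted is not given in the sources used here. Every direction between genotypes given here rests on these labels.

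Across the CD45 sort, all 10 genes were called (edgeR quasi-likelihood test, Benjamini-Hochberg adjusted p of at most 0.05). *Tgfb1* and *Tgfbr1* were higher in the CD45+ populations and the other 8 were lower. The sort separated most of the transcriptome: 63.7% of all 15018 genes were called, 32.6% higher and 31.1% lower, so a call alone does not set these genes apart. The sizes of the changes are therefore given as a description. The median log2 fold change was -3.11 over the 10 genes and 0.06 over all genes tested. In 6 of the 10, *Tgfb2*, *Tgfb3*, *Tgfbr3*, *Ltbp2*, *Ltbp3* and *Inhba*, every CD45+ library was below every CD45- library. Of all genes, 11% were separated in this direction, and 3.71% in the opposite one. Libraries are of bulk cells, so fewer cells of a type and less RNA per cell cannot be told apart. The fibroblast sum moved with these 8 genes across the sort, and its part in them was not tested.

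**Figure D1:**
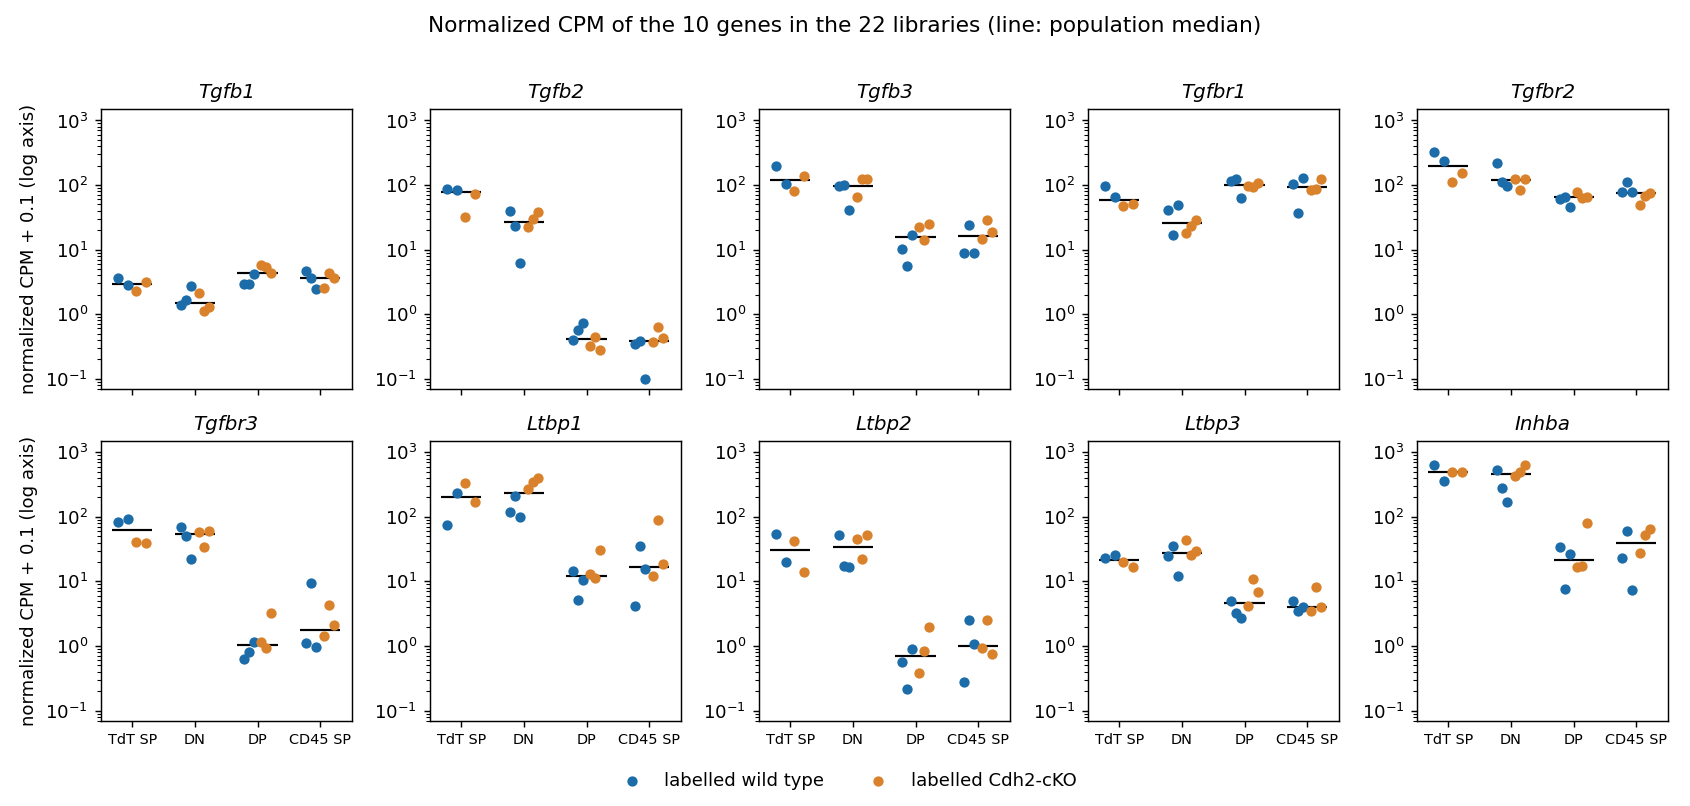
Normalized CPM, with 0.1 added, of the 10 genes on a log axis in the TdTOSX single positive (TdT SP), double negative (DN), double positive (DP) and CD45 single positive (CD45 SP) libraries. Points are libraries, colored by genotype label, and lines are population medians: the *Tgfb2* medians are 77.6 and 26.6 CPM in CD45- and 0.318 and 0.28 CPM in CD45+ cells, and every *Tgfb1* value lies between 1.02 and 5.74 CPM.

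The ligand *Tgfb2* showed the widest separation of the 10. Its normalized CPM were 85.4 and 84 in wild type TdTOSX single positive libraries and 32.1 and 71.3 in those labelled Cdh2-cKO. In double negative cells they were 39.9, 23.3 and 6.17 in wild type libraries and 22.4, 29.9 and 38.4 in those labelled Cdh2-cKO. In the 12 CD45+ libraries the lowest value was 0, the median 0.292 and the highest 0.633 CPM. These CD45+ levels rest on 0 to 12 counts per library, close to the detection limit. *Tgfb2* was 139-fold lower in CD45+ populations (log2 fold change -7.12, SE 0.368, adjusted p = 8.72e-11). The lowest CD45- value was that of double negative replicate 3, the CD45- library with the highest leukocyte sum.

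*Tgfb3* was detected in every library. Its lowest, median and highest levels were 41.6, 101 and 197 CPM in the 10 CD45- libraries and 5.5, 15.7 and 28.7 CPM in the 12 CD45+ libraries. The groups did not overlap, and the CD45+ median was 15.5% of the CD45- median. The difference was 6.81-fold (log2 fold change -2.77, SE 0.264, adjusted p = 1.05e-07). Within the CD45- and within the CD45+ cells, the ranges of the TdTOSX+ and TdTOSX- populations overlapped.

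*Tgfb1*, the isoform best known from platelets and immune cells, went the other way but was low throughout. The lowest, median and highest levels were 2.37, 3.83 and 5.74 CPM in CD45+ libraries and 1.02, 2.11 and 3.47 CPM in CD45- libraries. The 2 groups overlapped. The fitted difference was 1.76-fold (log2 fold change 0.82, SE 0.199, adjusted p = 0.00169). Only 21 to 110 counts per library lie behind these values. In the 11 wild type libraries alone the log2 fold change was 0.51 and the adjusted p = 0.234, while in the 11 libraries labelled Cdh2-cKO it was 1.07 with an adjusted p = 0.00479. In that wild type fit 38.4% of 14533 genes were called, and 8 of the 10 genes.

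Divided by length, the counted ligand messages were mostly *Tgfb3*. These shares rest on the low *Tgfb1* counts as deposited, and whether the counting or the annotation lowers them was not tested. It made 71% ± 6.45 (SD, n = 4) of the summed CPM per kb of the 3 ligands in TdTOSX single positive cells, 81.2% ± 3.63 (n = 6) in double negative, 70.7% ± 8.3 (n = 6) in double positive cells and, for CD45 single positive cells, 76.2% ± 9.44 (n = 6). What changed across the CD45 sort was the second isoform. *Tgfb2* made 26.9% ± 6.49 and 16.2% ± 4.72 in TdTOSX single positive and double negative cells, and 1.51% ± 1.13 and 0.842% ± 0.441 in double positive and CD45 single positive cells. *Tgfb1* made 2.17% ± 0.377 and 2.53% ± 2.31 of the ligand messages in the CD45- populations, and 27.8% ± 7.42 and 23% ± 9.44 in the CD45+ populations. The highest *Tgfb1* share of a CD45- library was 6.93% and the lowest of a CD45+ library 16.1%, so these shares did not overlap either.

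**Figure D2:**
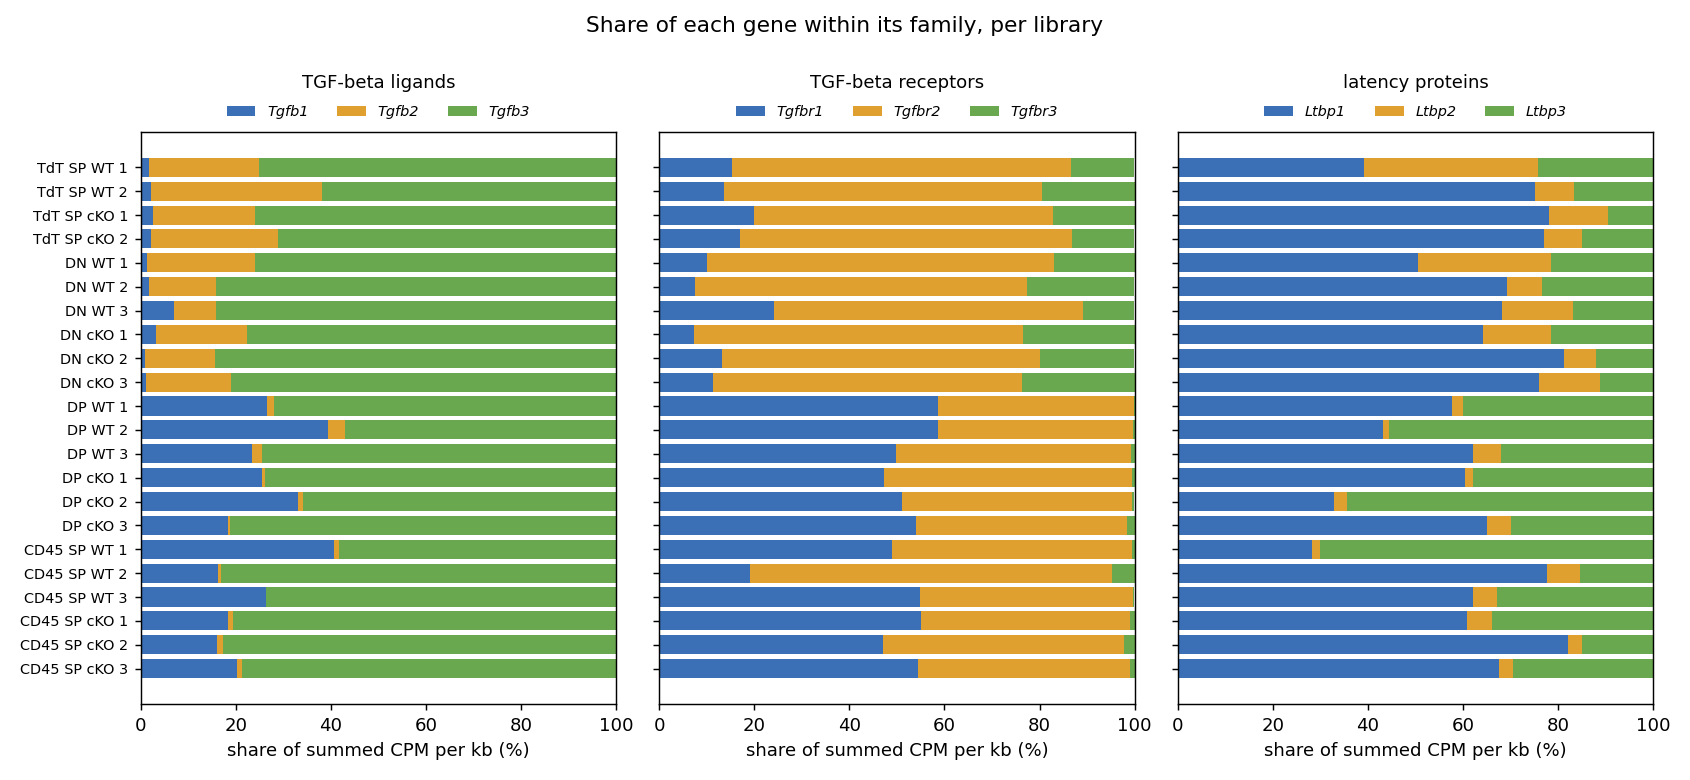
Share in percent of each gene in the summed CPM per kb of its family, as stacked bars, for the 3 ligands, 3 receptors and 3 latency proteins in each of the 22 libraries (WT, labelled wild type; cKO, labelled Cdh2-cKO). *Tgfb3* is the largest part of the ligand bar in every library, from 57.1% to 84.4%, and *Tgfbr3* is at most 4.71% of the receptor bar in CD45+ libraries.

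The receptors divided by the CD45 sort. *Tgfbr1* encodes the type I receptor kinase. Its lowest, median and highest levels were 37.3, 99.2 and 129 CPM in CD45+ and 16.5, 44.3 and 95.8 CPM in CD45- libraries. The lowest CD45+ value was that of CD45 single positive replicate 2 of the wild type, the library with the highest T and B cell sums. *Tgfbr1* was 2.27-fold higher in CD45+ cells (log2 fold change 1.18, SE 0.223, adjusted p = 0.000183), with overlapping groups. In the wild type libraries alone the log2 fold change was 0.83 and the adjusted p = 0.12.

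*Tgfbr2* encodes the type II receptor that binds the ligand first. Its level was 45.7, 66.4 and 110 CPM (lowest, median, highest) in CD45+ and 84.4, 124 and 324 CPM in CD45- libraries. The groups overlapped, and the highest CD45+ value was again that of wild type CD45 single positive replicate 2. *Tgfbr2* was 2.27-fold lower in CD45+ cells (log2 fold change -1.18, SE 0.152, adjusted p = 3.66e-06).

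*Tgfbr3* encodes betaglycan, a coreceptor without kinase activity that presents ligand, TGF-beta2 above all, to the type II receptor. It ranged from 22 to 94 CPM in CD45- libraries, with a median of 54.3, and from 0.535 to 9.28 CPM in CD45+ libraries, with a median of 1.05. No CD45+ library reached the lowest CD45- library. The difference was 28.9-fold (log2 fold change -4.85, SE 0.418, adjusted p = 3.02e-08). The highest CD45+ values, 9.28 and 4.28 CPM, were both in CD45 single positive libraries, replicate 2 of each genotype label.

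Per kb, *Tgfbr2* was the largest part of the receptor messages in CD45- cells, with 67.8% ± 3.69 (SD, n = 4) in TdTOSX single positive and 68.1% ± 3.17 (n = 6) in double negative cells. In CD45+ cells *Tgfbr1* and *Tgfbr2* were close to equal, with *Tgfbr1* at 53.2% ± 4.73 in double positive and 46.5% ± 13.9 in CD45 single positive cells (n = 6 each). The share of *Tgfbr3* was 15.7% ± 3.15 and 19.6% ± 5.01 in the CD45- populations and 0.667% ± 0.498 and 1.61% ± 1.67 in the CD45+ populations.

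The latency proteins were all lower in CD45+ cells. *Ltbp1*, which binds the latent complex of all 3 ligands and fixes it to the matrix, ranged from 74 to 399 CPM in CD45- libraries, with a median of 219. In CD45+ libraries it ranged from 4.03 to 89.1 CPM, with a median of 13.7. A single CD45+ library, CD45 single positive replicate 2 labelled Cdh2-cKO, reached into the CD45- range at 89.1 CPM, and the next was at 35 CPM. The difference was 10.9-fold (log2 fold change -3.45, SE 0.414, adjusted p = 1.72e-06).

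*Ltbp2* is named for the family but is known as a microfibril protein that does not bind latent TGF-beta. It was at 13.9 to 54.3 CPM in CD45- libraries, median 32, and at 0.117 to 2.47 CPM in CD45+ libraries, median 0.76. It was 36-fold lower in CD45+ cells (log2 fold change -5.17, SE 0.468, adjusted p = 5.47e-08), without overlap. Of its 8184 counted bases, the 764 shared ones lie in exons of *D030025P21Rik* on the opposite strand, and the counts do not separate the strands.

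*Ltbp3* binds latent TGF-beta and is known from bone and tooth growth. Its CD45- range was 11.9 to 44.5 CPM with a median of 25.2, and its CD45+ range 2.64 to 10.8 CPM with a median of 4.04. The ranges did not overlap, although the highest CD45+ library came close to the lowest CD45- library. The difference was 5.01-fold (log2 fold change -2.33, SE 0.224, adjusted p = 1.17e-07). *Ltbp1* was the largest part of the 3 latency messages per kb in all 4 populations, from 53.5% ± 12.7 (SD, n = 6) in double positive to 68.2% ± 10.6 (n = 6) in double negative cells. *Ltbp3* made 16.3% ± 6.09 and 17.8% ± 5.28 of these messages in TdTOSX single positive and double negative cells, and 43.3% ± 13.8 and 32.8% ± 20.1 in double positive and CD45 single positive cells, with overlapping libraries.

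*Inhba* was the most abundant of the 10 per kb in both CD45- populations. Its mean was 252 CPM per kb in TdTOSX single positive and 214 in double negative cells, against 38.3 and 27.1 CPM per kb for *Tgfb3* in the same cells. In CD45+ cells the means of *Inhba* were 15.3 CPM per kb in double positive and 19.8 in CD45 single positive cells, beside 15.3 and 14.3 for *Tgfbr1*. On the CPM scale its lowest, median and highest levels were 172, 496 and 639 in CD45- and 7.27, 26.7 and 81.2 in CD45+ libraries. The groups stood apart, with a 13.6-fold difference (log2 fold change -3.76, SE 0.404, adjusted p = 4.52e-07). The lowest CD45- value was once more in wild type double negative replicate 3.

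In the order of the population medians, *Tgfb2*, *Tgfb3*, *Tgfbr2*, *Tgfbr3* and *Inhba* were highest in TdTOSX single positive cells, the 3 latency genes in double negative cells, and *Tgfb1* and *Tgfbr1* in double positive cells. The *Tgfb3* medians were 120 and 97.8 CPM in TdTOSX single positive and double negative cells and 15.5 and 16.4 CPM in double positive and CD45 single positive cells, and those of *Tgfbr2*, in the same order, were 195, 118, 64.2 and 75.9 CPM. The *Ltbp1* medians were 201, 237, 12.1 and 16.8 CPM, those of *Ltbp2* 30.6, 34.1, 0.601 and 0.897 CPM, and those of *Ltbp3* 21.3, 27.2, 4.47 and 3.98 CPM. *Inhba* had medians of 496, 463, 21.6 and 39.6 CPM and *Tgfbr3* of 61.6, 54.3, 0.938 and 1.68 CPM. For *Tgfbr1* they were 58.7, 26, 102 and 94.3 CPM, so that the TdTOSX single positive median lay between those of the double negative and the CD45+ cells. For 6 of the 10 genes the only neighbors in this order whose libraries did not overlap were the lower CD45- and the higher CD45+ population. For *Tgfb1*, *Tgfbr1*, *Tgfbr2* and *Ltbp1* every pair of neighbors overlapped. Between the TdTOSX+ and TdTOSX- population of the same CD45 status, the libraries of all 10 genes overlapped.

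**Figure D3:**
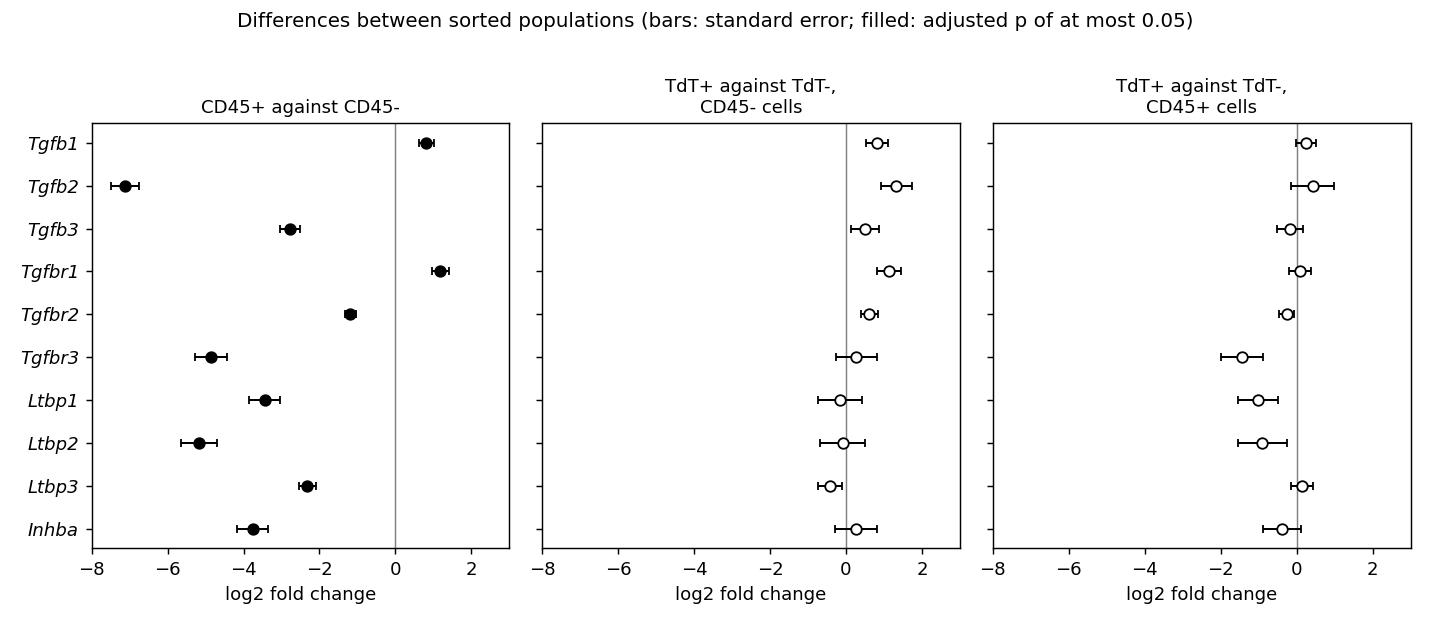
Log2 fold changes of the 10 genes between CD45+ and CD45- populations (left), and between TdTOSX+ and TdTOSX- cells within CD45- cells (middle) and within CD45+ cells (right). Bars are standard errors, and filled points have an adjusted p of at most 0.05: all 10 are filled on the left, from -7.12 to 1.18, and none in the other panels.

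Within CD45- cells, TdTOSX single positive cells were compared with double negative cells, which asks what marks the Osx lineage within the CD45- sort. None of the 10 genes was called with edgeR, where 1.89% of all genes were. Unadjusted p-values under 0.05 were found for 4 of the 10, *Tgfb1*, *Tgfb2*, *Tgfbr1* and *Tgfbr2*, and for 2847 of all genes. *Tgfb2* had 32.1, 71.3, 84 and 85.4 CPM in TdTOSX single positive cells, and a lowest, median and highest value of 6.17, 26.6 and 39.9 CPM in double negative cells. A single TdTOSX single positive library lay inside the double negative range, replicate 1 labelled Cdh2-cKO. The log2 fold change was 1.32 (SE 0.405, adjusted p = 0.0929).

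*Tgfbr1* had 47.6, 51.5, 65.9 and 95.8 CPM in TdTOSX single positive cells and 16.5, 26 and 49.2 CPM (lowest, median, highest) in double negative cells. The highest double negative value, in wild type replicate 3, lay above the lowest TdTOSX single positive value. The log2 fold change was 1.13 (SE 0.318, adjusted p = 0.0691). *Tgfb1* differed by 0.82 (SE 0.29, adjusted p = 0.135) and *Tgfbr2* by 0.62 (SE 0.224, adjusted p = 0.146) on the log2 scale. The other 6 genes had log2 fold changes between -0.42 and 0.5 with standard errors of 0.326 to 0.589.

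These calls depended on the test and the libraries. Limma's voomWithQualityWeights, the test of the study's methods, called *Tgfb2* (adjusted p = 0.0201) and *Tgfbr1* (adjusted p = 0.025) higher in TdTOSX single positive cells, with 4.78% of all genes called. DESeq2 called *Tgfbr1* alone of the 10 (adjusted p = 0.0222), with 6.54% of genes called. Without double negative replicate 3 and CD45 single positive replicate 2 of the wild type together, edgeR called *Tgfb1* (adjusted p = 0.0415), *Tgfb2* (adjusted p = 0.0299) and *Tgfbr1* (adjusted p = 0.00784), with 10.2% of genes called. Without that double negative replicate 3 alone, *Tgfbr1* was called (adjusted p = 0.0363, 5.85% of genes), and without that CD45 single positive replicate 2 alone it was too (adjusted p = 0.0244, 4.73% of genes). Without wild type double negative replicate 1, *Tgfb2* (adjusted p = 0.0344) and *Tgfbr2* (adjusted p = 0.031) were called, with 3.51% of genes. Without double negative replicate 3 and CD45 single positive replicate 2 of the wild type and TdTOSX single positive replicate 1 labelled Cdh2-cKO together, a set chosen after seeing the data, edgeR called *Tgfb2* (adjusted p = 0.024) and *Tgfbr1* (adjusted p = 0.0239), with 5.2% of genes. In the 11 libraries labelled Cdh2-cKO alone, *Tgfbr1* was called (adjusted p = 0.0108, 8.1% of genes). Over 32 alternatives, the log2 fold change was positive throughout for *Tgfb2*, from 0.76 to 1.87, and for *Tgfbr1*, from 0.96 to 1.47. The macrophage sum had a median of 2080 CPM (68.5 to 5530) in TdTOSX single positive and 242 CPM (95.5 to 7360) in double negative libraries. The median log2 fold change of its 5 genes was 1.39, none of them called. The leukocyte sum had medians of 1580 and 341 CPM in the same order, and *Tgfb1* and *Tgfbr1* were higher in CD45+ cells. The fibroblast sum had a median of 30300 CPM in TdTOSX single positive and 9460 CPM in double negative libraries, and the median log2 fold change of its 7 genes was 1.16, none of them called. The part of fibroblast and of leukocyte transcripts in these values was not tested. The omissions above cannot test it. Those without wild type double negative replicate 3 also removed the highest macrophage sum of double negative cells, 7360 CPM.

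Within CD45+ cells, double positive cells were compared with CD45 single positive cells. None of the 10 was called, against 0.00666% of all genes, a single one. *Tgfbr3* had the smallest p, with a log2 fold change of -1.43 (SE 0.547, adjusted p = 1). Its levels were 0.535, 0.702, 0.825, 1.05, 1.06 and 3.19 CPM in double positive cells and 0.862, 1.02, 1.32, 2.05, 4.28 and 9.28 CPM in CD45 single positive cells. The libraries overlapped, and the highest value was in the library with the high T and B cell sums. The same library had an endothelial sum of 217 CPM, against 7.72 to 37.5 CPM in the other 11 CD45+ libraries, and the part of this in *Tgfbr3* was not tested. Unadjusted p-values under 0.05 were found for this gene alone of the 10, and for 609 of all genes. The other 9 genes had log2 fold changes between -1.01 and 0.43.

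The TdTOSX difference was also compared between CD45+ and CD45- cells. None of the 10 genes was called for this difference, against 0.00666% of all genes. It was below 0 in 9 of the 10, with a median of -0.83 on the log2 scale, where the median of all genes was -0.15. Unadjusted p-values under 0.05 were found for *Tgfbr1*, *Tgfbr2* and *Tgfbr3* and for 1431 of all genes. The smallest p was that of *Tgfbr2*, whose TdTOSX difference was 0.62 in CD45- and -0.26 in CD45+ cells, a difference of -0.88 (SE 0.303, adjusted p = 0.463).

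Between the genotypes, none of the 10 genes was called in any population. The share of all genes called was 0.00666% in TdTOSX single positive cells and 0% in each of the other 3 populations. Unadjusted p-values under 0.05 were found for 1576 genes in TdTOSX single positive, 1441 in double negative, 515 in double positive and 1474 in CD45 single positive cells. Among the 10 genes they were found for *Tgfbr2* in TdTOSX single positive and *Ltbp3* in double positive cells. No tool tried called any of the 10. Groups held 2 or 3 libraries, and the standard errors of the log2 fold changes were between 0.287 and 0.938, so differences of that size were not detectable with these libraries.

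**Figure D4:**
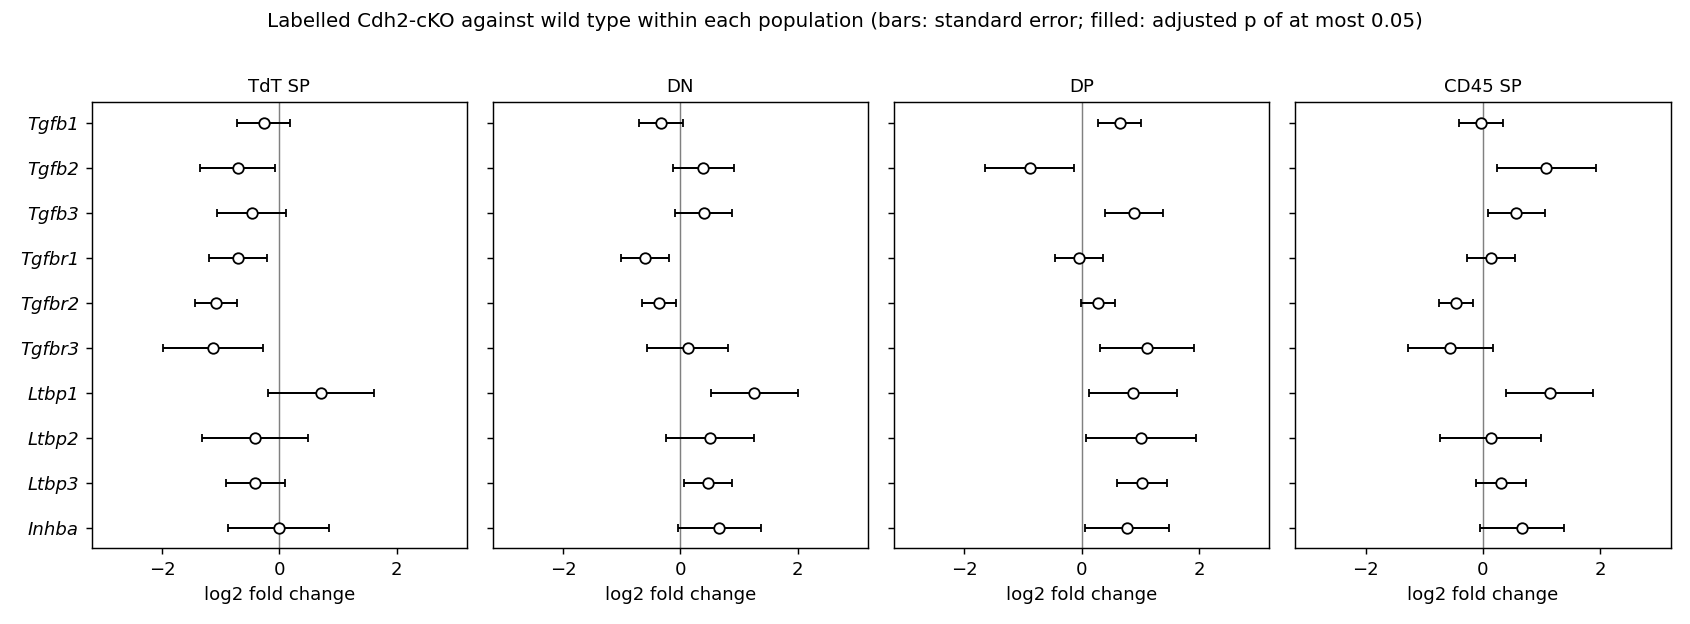
Log2 fold changes of the 10 genes between libraries labelled Cdh2-cKO and wild type in TdTOSX single positive (TdT SP), double negative (DN), double positive (DP) and CD45 single positive (CD45 SP) cells, with standard errors as bars. All points are open, with adjusted p above 0.05: the values run from -1.13 to 0.72 in TdT SP, -0.61 to 1.26 in DN, -0.89 to 1.11 in DP and -0.55 to 1.14 in CD45 SP.

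*Tgfbr2* had 324 and 235 CPM in the wild type and 110 and 155 CPM in the libraries labelled Cdh2-cKO of TdTOSX single positive cells. With 2 libraries under each label, a gap between such values does not set a gene apart. For *Tgfbr2* the log2 fold change was -1.08 (SE 0.355, edgeR adjusted p = 0.339). The leukocyte sums of these libraries were 207 and 1500 CPM in the wild type and 3540 and 1660 CPM under the Cdh2-cKO label, and the fibroblast sums were 59700 and 32100 CPM and 13800 and 28500 CPM. Their part in the difference was not tested. In the same cells *Tgfb2* had a log2 fold change of -0.71 (SE 0.637) and *Tgfbr3* of -1.13 (SE 0.847).

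*Ltbp3* had 4.87, 3.16 and 2.64 CPM in wild type double positive libraries and 4.08, 10.8 and 6.85 CPM in those labelled Cdh2-cKO. The libraries overlapped. The log2 fold change was 1.03 (SE 0.425, edgeR adjusted p = 1). *Ltbp1* had positive log2 fold changes in all 4 populations, from 0.72 (SE 0.903) in TdTOSX single positive to 1.26 (SE 0.745) in double negative cells, and none was called. In double negative cells its values were 119, 207 and 97.9 CPM in wild type libraries and 267, 346 and 399 CPM in those labelled Cdh2-cKO. With 3 libraries under each label and an edgeR adjusted p = 0.728, these values do not set the gene apart.

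The CD45 difference itself was compared between the genotype labels, and none of the 10 genes was called, as were 0% of all genes. The difference, Cdh2-cKO minus wild type, was above 0 for all 10 on the log2 scale, from 0.02 for *Ltbp1* to 0.79 for *Tgfbr3*. The median was 0.62 over the 10 genes and 0.007 over all genes. Of 30 alternatives, *Ltbp1* fell below 0 in 10, *Tgfb2* in 2 and *Inhba* in 1. The 7 fibroblast markers had a median of 1.33 in this comparison, none of them called, and their part in it was not tested. The smallest p was 0.0544, for *Tgfbr2*, at 0.63 (SE 0.305, adjusted p = 0.646).

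Across the 22 libraries, the genes whose log2 CPM was most like that of each member were named by Pearson's r. The points share the CD45 sort, so these values mainly describe that separation. Among themselves, the 8 genes lower in CD45+ cells had values of r from 0.62 (*Tgfbr2* with *Ltbp1*) to 0.96 (*Tgfbr3* with *Ltbp2*), and *Tgfb1* with *Tgfbr1* of 0.69. *Tgfb2* was most like *Serpine2*, *Actg2* and *Loxl1* (r = 0.988, 0.986 and 0.986), and *Tgfb3* like *Loxl3* (0.978), *Cdr2l* (0.975) and *Oaf* (0.972). *Tgfbr3* was most like *Fgfr1*, *Id3* and *Ptk2* (0.989, 0.986 and 0.985), and *Tgfbr2* like *Twsg1*, *Il6st* and *Rab22a* (0.947, 0.936 and 0.933). Of the latency genes, *Ltbp1* was most like *Slco2a1*, *Ano1* and *Cpe* (0.984, 0.981 and 0.98), *Ltbp2* like *Sema5a*, *Nedd4* and *Fbln2* (0.978, 0.976 and 0.975), and *Ltbp3* like *Adgrl3*, *Cyb561* and *Ackr3* (0.976, 0.964 and 0.954). *Inhba* was most like *Ddr2*, *Has1* and *Timp1* (0.977, 0.976 and 0.974). The genes on the CD45+ side were *Ostf1*, *Sptlc2* and *Golga7* for *Tgfbr1* (0.97, 0.956 and 0.955), and *Piwil2*, *Fnbp1* and *Hnrnpul1* for *Tgfb1* (0.875, 0.867 and 0.866).

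The proteins that store and release latent TGF-beta followed the CD45 sort as well. Of 16 genes for latency and activation 15 were tested, and 12 were lower and 2 higher in CD45+ cells, beside 31.1% lower and 32.6% higher of all genes. Their median log2 fold change was -1.38. The fibrillins *Fbn2* and *Fbn1*, which form the microfibrils that latency proteins bind, had the largest decreases, with log2 fold changes of -7.21 (SE 0.505) and -6.59 (SE 0.361). The genes higher in CD45+ cells were *Nrros*, which tethers latent TGF-beta1 on myeloid cells, at 2.76 (SE 0.499), and *Furin*, the protease that cuts the propeptide, at 1.56 (SE 0.212). *Lrrc32*, the gene of the tether GARP, was lower at -3.65 (SE 0.508). The median level of *Nrros* was 209 CPM in double positive and 174 CPM in CD45 single positive cells, against 41.9 and 8.04 CPM in TdTOSX single positive and double negative cells. That of *Lrrc32* was 2.02 and 2.54 CPM in the CD45+ and 39.8 and 19.8 CPM in the CD45- populations, in the same order. *Thbs1*, whose product can free the ligand, had a log2 fold change of 0.18 (SE 0.214) and was not called.

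Of 8 genes of the activin and inhibin system 7 were tested, and 4 were lower and none higher in CD45+ cells. Since 63.7% of all genes were called, this number of calls does not set the list apart. *Inhbb*, the other activin subunit, had a log2 fold change of -6.42 (SE 0.366) and *Inha*, the inhibin subunit, of -4.9 (SE 0.679). The genes of the activin-binding inhibitors, *Fst* and *Fstl3*, had log2 fold changes of -4.83 (SE 0.287) and -4.64 (SE 0.403). The activin receptors *Acvr1b*, *Acvr2a* and *Acvr2b* were not called, with values from -0.58 to -0.03. *Inha* was low, with a median of 1.11 CPM in TdTOSX single positive cells and 0 CPM in both CD45+ populations. Of the 4 accessory receptor genes, *Eng* (log2 fold change -1.9, SE 0.249) and *Cd109* (-1.26, SE 0.311) were lower, *Acvrl1* was higher (1.14, SE 0.194) and *Bambi* was not called, so that 3 of 4 were called beside 63.7% of all genes.

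All 10 genes of Smad signaling were called, 4 higher and 6 lower in CD45+ cells, where 63.7% of all genes were called. The largest were those of the receptor-activated *Smad3* (log2 fold change -1.83, SE 0.178) and the ubiquitin ligase *Smurf1* (-1.33, SE 0.182), and on the other side the inhibitory *Smad6* (1.27, SE 0.347), at medians of 0.363 to 1.44 CPM, and the repressor *Skil* (0.92, SE 0.14). *Smad2*, which acts beside *Smad3*, was higher by 0.34 (SE 0.0906) and the shared *Smad4* lower at -1.03 (SE 0.162).

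Of 10 genes known to respond to TGF-beta, 8 were lower and *Tgfbi* was higher in CD45+ cells, while *Pmepa1* was not called. Of all genes, 31.1% were lower and 32.6% higher. *Col1a1*, which is also one of the fibroblast markers, had a log2 fold change of -7.51 (SE 0.373), *Postn* of -7.46 (SE 0.388) and *Tgfbi* of 2.56 (SE 0.439). The median level of *Tgfbi* was 3900 CPM in double positive and 3360 CPM in CD45 single positive cells, against 541 and 386 CPM in TdTOSX single positive and double negative cells. In the TdTOSX contrast of CD45- cells *Ccn2* alone of the genes in these 5 lists was called. Of all genes 1.89% were called there, so this call does not set the lists apart. *Ccn2* was higher in TdTOSX single positive cells by 1.53 on the log2 scale (SE 0.383, edgeR adjusted p = 0.0495), where the median fibroblast sum was higher too. The median level of *Ccn2* was 86.3 CPM in TdTOSX single positive and 26.2 CPM in double negative cells. Its call was not followed over the alternatives.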

How the data were processed

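RNA of sorted tumor stromal cells was sequenced as amplified (SMARTer) cDNA, giving 22 libraries in 8 groups of population and genotype label. Per the methods, the authors aligned the reads with STAR 2.0.4b to GRCm38 and counted uniquely aligned reads on Ensembl genes with featureCounts, and the deposited counts are not normalized. The deposited CPM (counts scaled by the library total) and RPKM (that CPM per kb of gene) were computed by the authors, differed from values recomputed here by at most 5.1e-15 in relative terms and were not used further. The kit does not mark the strand, and reads shared with paralogs or overlapping genes are left out.

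Counts were analysed in R 4.3.3. The 355 rRNA genes (0.421% to 5.28% of counts) were excluded, and a gene had to exceed 1 CPM in 2 libraries. With TMM factors, edgeR 4.0.16 fitted 1 mean per group by quasi-likelihood over all 22 libraries, for 9 contrasts that average the genotypes unless these are named. P-values were adjusted by Benjamini-Hochberg over all genes of a contrast, and a standard error is the log2 fold change divided by the root of F. Normalized CPM use TMM-scaled library sizes, and CPM per kb divide them by the counted exon length deposited with the counts. GENCODE M21 gave the gene types by which rRNA genes were excluded. Likeness used log2 CPM with a prior count of 2. The fit was tested on simulated data. Alternatives were limma 3.58.1 (voomWithQualityWeights), DESeq2 1.42.0 (no p-value for 101 genes), RLE factors, no filter, a log2 fold change of at least 2, a replicate block, each genotype alone and libraries left out. By chi-square per degree of freedom, replicates differed 49.1 to 437 times more than counting error. They are not tied to mice in the labels.

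The deviations of libraries from their group means were correlated between libraries. Values of r over 0.1 were found in 10 of 30 pairs with the same replicate number and genotype (median r = 0.052). They were found in 6 of 60 pairs with the same genotype and different numbers (median r = -0.021). The fit assumed no pairing, since the labels do not tie libraries to mice, and pairing by mouse was not tested. The 10 genes and the lists were chosen with earlier results of these data known. Named are the 10 genes, *Cdh2*, *Ptprc* and *Sp7*, the 2 listed genes per direction with the largest change (all where few were called), and the 3 genes most like each of the 10. *Lrrc32*, *Thbs1*, *Smad2*, *Smad4*, *Pmepa1*, *Bambi* and the activin receptors were added after their values were seen. Promoter sequences are from RefSeq on GRCm38.p6.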

Additional observations from a re-analysis of the deposited data

How the results depend on the processing

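Over 32 alternatives, 7 to 10 of the 10 genes were called in the CD45 contrast. With a log2 fold change of at least 2 required, 7 remained past the threshold, without *Tgfb1*, *Tgfbr1* and *Tgfbr2*, beside 3709 of all 15018 genes. In the wild type libraries alone 8 were called, without *Tgfb1* and *Tgfbr1*, beside 38.4% of all genes. In the TdTOSX contrast of CD45- cells, 0 genes were called as reported, 2 with voom, 1 with DESeq2, 3 without wild type CD45 single positive replicate 2 and double negative replicate 3, 2 when TdTOSX single positive replicate 1 labelled Cdh2-cKO was left out as well (chosen after seeing the data), and 1 in the libraries labelled Cdh2-cKO alone. Leaving out each library in turn gave 0 to 2. The other 7 contrasts gave 0 of the 10 genes under all alternatives run for them, 30 for those that compare genotypes and 32 for the rest.

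In that TdTOSX contrast, uncalled log2 fold changes near 0 changed sign. In the wild type alone, that of *Ltbp1* was 0.11, of *Ltbp2* 0.37 and of *Ltbp3* 0.009. In the libraries labelled Cdh2-cKO alone, that of *Inhba* was -0.08 and of *Tgfbr3* -0.36. With voom that of *Ltbp2* was 0.034. Leaving out each library in turn moved *Ltbp1* between -0.68 and 0.14 and *Ltbp2* between -0.58 and 0.29. Uncalled values changed sign in all other contrasts too, apart from the CD45 contrast. In the TdTOSX contrast of CD45+ cells *Tgfb3* did so in 5 of 32 alternatives. Between genotypes in CD45 single positive cells *Tgfbr3* did so in 4 of 30, with values from -1.15 to 1.42. Without division by length, the ligand share of *Tgfb1* was 1.49% and of *Tgfb2* 33.9% in TdTOSX single positive cells, and those of *Tgfb2* and *Tgfb3* were 21.3% and 76.8% in double negative cells.

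With a replicate block, 10 genes were called in the CD45 contrast and 0 in every other, as without it. The block joined equal replicate numbers across both genotype labels, so it cannot stand for pairing by mouse. In the TdTOSX contrast of CD45- cells the block gave 234 genes of all tested, against 284. Of the 22 libraries, 6 correlated best on average with libraries of their own number. These averages also ran over both genotype labels and do not decide on pairing by mouse. The numbers of all genes called moved by over 1.5 times elsewhere. In the CD45 contrast 9570 became 3709 with the fold threshold and 5575 in the wild type alone. In the TdTOSX contrast of CD45- cells 284 ranged from 30 to 878 over left-out libraries and from 0 to 1509 over the other alternatives. Between genotypes, the counts were 1 (0 to 134) in TdTOSX single positive, 0 (0 to 1) in double positive, 0 (0 to 26) in CD45 single positive and 0 (0 to 604) in double negative cells, the highest with DESeq2 or, for the last, without wild type double negative replicate 1. For the difference of the CD45 contrast between genotypes they were 0 (0 to 30), for the TdTOSX contrast of CD45+ cells 1 (0 to 6), and for its difference between CD45+ and CD45- cells 1 (0 to 553). The cause of these shifts was not tested. Other scalings moved the median of all genes by less than 0.1 on the log2 scale.

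With 2 or 3 libraries per group, differences between genotypes of the size of their standard errors were not detectable. *Tgfb1* (21 to 110 counts per library) and *Tgfb2* in CD45+ cells (0 to 12) rest on few counts, as do *Ltbp2* (2 to 42) in CD45+ cells and *Tgfbr3* (9 to 53) in double positive cells.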

Other observations

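*Tgfb1*, which shares no counted exon with another gene, had 21 to 110 counts per library, with a median of 58.5. The genes beside it on chromosome 7, chosen after their values were seen, had medians of 708 (*B9d2*), 437.5 (*Ccdc97*) and 1314.5 counts (*Hnrnpul1*). Per kb, *Tgfb1* had a median of 1.12 CPM, against 39 for *B9d2*, 6.09 for *Ccdc97* and 19.9 for *Hnrnpul1*, and each of these was above *Tgfb1* in all 22 libraries. *Hnrnpul1* was also among the 3 genes whose pattern over the libraries was most like that of *Tgfb1*, with r = 0.866. Whether the counting or the annotation lowers the *Tgfb1* counts was not tested.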
